A study of Mus musculus with 14 samples.

Results

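Of the 21755 protein-coding promoters examined in 81K1 mouse embryonic stem cells, 3294 (15.1%) were bivalent but carried no Ezh2 peak in control cells. A promoter was taken as the window of 1 kb on either side of a gene's annotated transcription start site (TSS), 2001 bp in all, on chromosomes 1 to 19 and X of mm10. The 3294 members were chosen by their called regions in control cells: a window had to share at least 1 bp with an H3K4me3 island and with an H3K27me3 island, and no base with an Ezh2 peak. Control H3K4me3, H3K27me3 and Ezh2 therefore describe the choice and are not results. For the same reason a member could acquire an Ezh2 call after Smarcb1 knockdown (kd) but not lose one, and could lose a call of H3K4me3 or H3K27me3 but not acquire one. Smarca4 and H3K27ac did not enter the rule.

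H3K4me3 marks the starts of active or inducible genes, whereas H3K27me3 is written by PRC2, whose catalytic subunit is Ezh2, and marks genes held silent. Promoters that carry both marks are called bivalent, and in embryonic stem cells they belong to many developmental genes that are silent or barely transcribed. Smarca4 is the ATPase of esBAF, the chromatin remodelling complex of embryonic stem cells, and Smarcb1 is one of its core subunits. BAF complexes can displace Polycomb proteins from chromatin. H3K27ac, found at active promoters and enhancers, sits on the same lysine as H3K27me3, so that a single histone tail cannot carry both.

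81K1 is a clone derived from the OG2 line, with a doxycycline-inducible shRNA against Smarcb1 inserted at the Rosa26 locus. Control cells were untreated, and kd cells received 1 µg doxycycline per ml medium daily and were fixed after 72 h. There was 1 library per antibody and condition, so that differences between control and kd had no replicate check and no test was made. Smarca4 and H3K27me3 were processed by Active Motif and the other 3 antibodies in the authors' laboratory, hence differences between these sets of antibodies cannot be told apart from differences between laboratories. Doxycycline treatment and Smarcb1 kd likewise cannot be told apart within this design, since all doxycycline-treated libraries carried the shRNA.

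To show what these promoters look like, 8 members are printed here as 300 bases of RefSeq sequence on GRCm38.p6, from 250 bases before to 50 after the RefSeq start, 5′ to 3′ on the strand of the gene, with every CpG in capitals. They were picked after their values had been seen, as examples of the outcomes described further on. Inhbb (chr1:119422199-119422498, minus strand), Klf15 (chr6:90462326-90462625, plus strand) and Kcnh5 (chr12:75177283-75177582, minus strand) had an Ezh2 peak after kd.
Inhbb: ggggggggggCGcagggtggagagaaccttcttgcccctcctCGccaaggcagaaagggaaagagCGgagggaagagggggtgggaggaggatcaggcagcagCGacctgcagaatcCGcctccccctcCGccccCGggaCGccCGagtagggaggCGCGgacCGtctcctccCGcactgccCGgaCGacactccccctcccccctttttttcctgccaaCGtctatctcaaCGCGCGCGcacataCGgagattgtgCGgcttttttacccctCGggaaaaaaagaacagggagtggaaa
Klf15: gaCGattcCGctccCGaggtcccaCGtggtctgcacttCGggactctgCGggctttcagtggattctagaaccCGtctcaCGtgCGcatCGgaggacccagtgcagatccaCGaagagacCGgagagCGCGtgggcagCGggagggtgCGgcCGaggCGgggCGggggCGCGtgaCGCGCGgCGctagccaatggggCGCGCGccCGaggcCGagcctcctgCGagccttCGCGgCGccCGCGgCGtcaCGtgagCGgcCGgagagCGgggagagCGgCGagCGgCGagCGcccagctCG
Kcnh5: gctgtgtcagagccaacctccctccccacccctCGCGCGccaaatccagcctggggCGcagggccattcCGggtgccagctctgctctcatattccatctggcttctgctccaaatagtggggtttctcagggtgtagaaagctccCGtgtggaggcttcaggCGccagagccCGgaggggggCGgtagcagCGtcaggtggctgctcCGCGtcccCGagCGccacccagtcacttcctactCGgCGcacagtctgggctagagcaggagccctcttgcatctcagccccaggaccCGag
Klf11 (chr12:24651121-24651420, plus strand), Lama5 (chr2:180225810-180226109, minus strand) and Klf4 (chr4:55532426-55532725, minus strand) had no Ezh2 peak in either condition and an H3K27ac island in kd alone.
Klf11: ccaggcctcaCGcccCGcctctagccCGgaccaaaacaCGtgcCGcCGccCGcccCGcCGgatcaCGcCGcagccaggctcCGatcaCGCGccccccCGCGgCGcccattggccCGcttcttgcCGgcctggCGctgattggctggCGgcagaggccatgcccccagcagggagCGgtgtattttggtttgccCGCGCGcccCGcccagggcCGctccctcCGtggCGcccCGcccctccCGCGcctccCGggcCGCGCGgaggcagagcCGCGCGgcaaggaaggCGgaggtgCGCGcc
Lama5: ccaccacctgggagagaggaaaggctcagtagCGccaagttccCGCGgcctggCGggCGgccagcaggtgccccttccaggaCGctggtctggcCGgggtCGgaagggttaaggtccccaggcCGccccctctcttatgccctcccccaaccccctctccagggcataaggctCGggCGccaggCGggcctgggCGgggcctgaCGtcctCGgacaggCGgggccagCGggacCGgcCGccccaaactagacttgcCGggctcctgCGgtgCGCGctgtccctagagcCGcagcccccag
Klf4: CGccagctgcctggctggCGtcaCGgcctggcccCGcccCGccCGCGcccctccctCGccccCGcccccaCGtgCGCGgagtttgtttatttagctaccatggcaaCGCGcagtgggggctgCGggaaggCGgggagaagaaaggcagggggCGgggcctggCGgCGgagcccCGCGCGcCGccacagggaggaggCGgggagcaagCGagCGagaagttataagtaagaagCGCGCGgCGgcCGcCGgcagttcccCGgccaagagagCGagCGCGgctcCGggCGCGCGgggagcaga
Zfp618 (chr4:62965317-62965616, plus strand) had Smarca4 in kd alone, and Cdkn1a (chr17:29090729-29091028, plus strand) is shown as a member with few CpG.
Zfp618: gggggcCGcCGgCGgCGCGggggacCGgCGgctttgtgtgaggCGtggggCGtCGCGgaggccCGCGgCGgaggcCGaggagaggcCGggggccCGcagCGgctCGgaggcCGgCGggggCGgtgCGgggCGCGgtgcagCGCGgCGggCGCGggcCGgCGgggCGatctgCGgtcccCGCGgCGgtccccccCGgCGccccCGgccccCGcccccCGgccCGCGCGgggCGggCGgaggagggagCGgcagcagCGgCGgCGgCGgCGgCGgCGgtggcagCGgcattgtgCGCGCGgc
Cdkn1a: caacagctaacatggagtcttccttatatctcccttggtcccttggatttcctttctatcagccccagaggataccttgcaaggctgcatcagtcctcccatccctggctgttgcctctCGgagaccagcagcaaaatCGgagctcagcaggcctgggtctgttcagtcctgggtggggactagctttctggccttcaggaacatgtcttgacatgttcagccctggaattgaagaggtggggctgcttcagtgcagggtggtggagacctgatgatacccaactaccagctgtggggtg
The 8 stretches held between 2 CpG, in Cdkn1a, and 59 CpG, in Zfp618. Inhbb held 23 CpG, Klf15 47, Kcnh5 17, Klf11 42, Lama5 24 and Klf4 40.

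The lists behind these calls differed in length between conditions. They held 78960 Smarca4 peaks in control and 72126 in kd, 6706 and 5364 Ezh2 peaks, 22900 and 18311 H3K27me3 islands, 38737 and 50700 H3K27ac islands, and 25873 and 33128 H3K4me3 islands. The lists carry no read counts, hence depth is unknown, and a window without a region is one without a call at the authors' limits. As a check of the cell type, the windows of the pluripotency genes Pou5f1, Nanog, Sox2 and Zfp42 had H3K4me3, H3K27ac and Smarca4 and no H3K27me3 in both conditions, whereas the annotated start of Esrrb had H3K27me3 and no H3K4me3. Smarcb1's own window carried Smarca4, H3K27ac and H3K4me3 in both conditions, which does not check the knockdown, as the shRNA acts on the mRNA. Chromosome 8 stood apart in H3K27ac after kd: an island was called at 44.1% of all its 1040 windows, against 14.8% in control.

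The edges of the rule were narrow. Just inside it, Slc12a5, a potassium-chloride cotransporter, had 2 of its 2001 window bases in a control H3K27me3 island, and Rundc3a and Chd1l had 3 each. Mllt3 lay 1030 bp, Otop1 1047 bp and Chd7 1048 bp from the nearest control Ezh2 peak, so that the peak ended just beyond the window. Just outside it, the bivalent windows of Isl2 and Gfra1 were left out because 1 and 19 of their bases lay in a control Ezh2 peak.

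Within the control windows the H3K27me3 of the members was less extensive than that of the 1360 bivalent promoters with an Ezh2 peak. The TSS lay inside an H3K27me3 island at 2583 members (78.4%), whereas this was so for 99.3% of the bivalent promoters with Ezh2. The island covered the whole window at 54.4% of members and at 96.2% of the windows with Ezh2. At 338 members the island lay upstream of the TSS alone, at 311 downstream alone and at 62 on both sides of it. The H3K27me3 islands at members had a median length of 8000 bp, those at bivalent promoters with Ezh2 of 16000 bp. At 125 members (3.79%) the H3K27me3 and H3K4me3 islands shared no base within the window, thus both marks were near the same TSS but not on the same bases. The 3294 windows are not independent: 480 of them (14.6%) shared bases with the window of another protein-coding gene, and 314 of the 3019 control H3K27me3 islands touched more than 1 member.

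The nearest control Ezh2 peak lay a median of 116766 bp from the member TSS, compared with 133297 bp for all windows and 141664 bp for H3K4me3 promoters without H3K27me3 and Ezh2, although the rule leaves out any peak within the window. In total, 147 members (4.46%) had one within 5 kb. At 268 members (8.14%) a control Ezh2 peak lay elsewhere in the same H3K27me3 island.

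After kd, an Ezh2 peak was called in 1025 of the 3294 member windows, 31.1% (95% Wilson interval 29.6 to 32.7%, which here and below covers counting error alone). Of all 20191 windows without Ezh2 in control, 6.28% had a peak in kd, and among all 21755 windows the share with a kd peak was 12.7%. Of the 1268 windows in which Ezh2 was called in kd alone, 1025 (80.8%) were members, 41 were H3K4me3 promoters without H3K27me3, and 202 were other windows. The kd list of Ezh2 was nevertheless the shorter of the pair. The kd peaks at members were mostly low in that list, with a median score of 86 and a median percentile of 36.3, against a score of 349 and a percentile of 80.5 at the bivalent promoters that had Ezh2 already in control. At those promoters the median score in control was 107, and scores are not scaled between libraries. In total, 1053 distinct peaks lay in the member windows, 19.6% of the kd list.

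**Figure D1:**
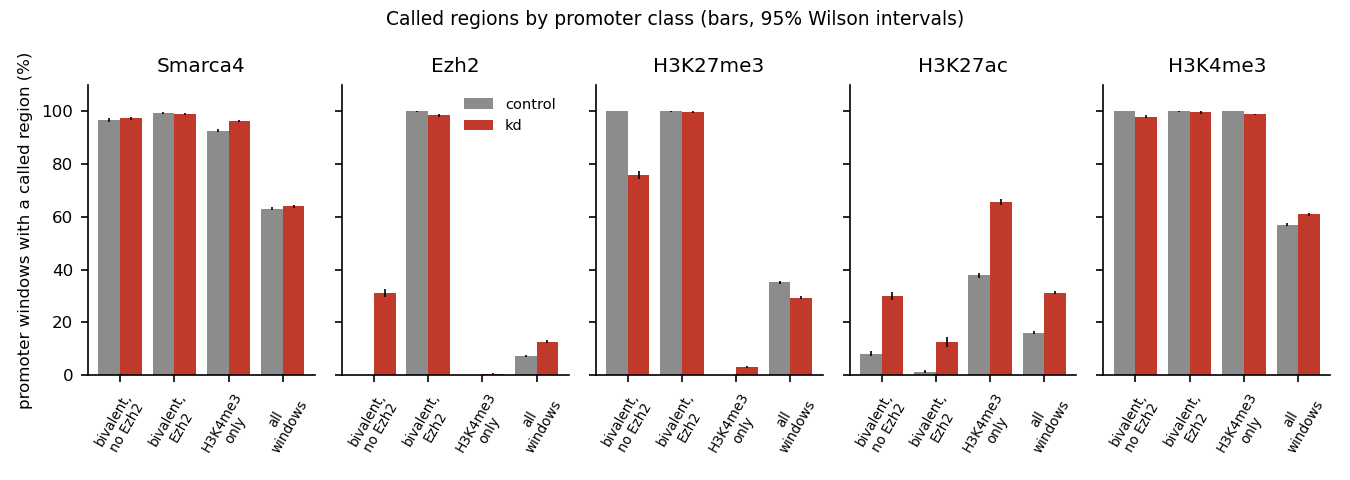
Percentage of promoter windows with a called region (vertical axis) for each antibody (panels), in control (grey) and kd (red), for the 3294 bivalent promoters without Ezh2, the 1360 with Ezh2, the 7738 H3K4me3 promoters with neither H3K27me3 nor Ezh2, and all 21755 windows; lines on the bars are 95% Wilson intervals. At the members Ezh2 stood at 31.1% in kd, H3K27me3 at 75.8% and H3K27ac at 30.1%, while Smarca4 and H3K4me3 were above 95% in kd; bars at 0 or 100% in control follow from the choice of classes.

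The member with the highest kd Ezh2 score was Bahd1, which encodes a protein of silent chromatin, with a score of 914. Its nearest control peak lay 1314 bp from the TSS, and the H3K27me3 island there was 26600 bp long in control and 35400 bp in kd, with the p-value listed as 0 in both. Ltk, a receptor tyrosine kinase, followed with a score of 675 and a control peak at 1390 bp. The kd peak at Ltk covered 38 window bases and lay 963 bp from the TSS, so that most of it was outside the window. At Inhbb, the activin B subunit whose sequence is printed above, the kd score was 613 and no control peak lay nearer than 181668 bp. Its H3K27me3 island had a −log10 p of 166 in control and 119 in kd, its Smarca4 score was 616 in control and 307 in kd, and an H3K27ac island with a −log10 p of 23.9 was called in kd alone. Inhbb thus carried calls of all 5 antibodies after kd.

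Pmepa1, an inhibitor of TGF-beta signalling, also had a kd Ezh2 score of 613, with H3K27ac at a −log10 p of 6.86 in control and 17.9 in kd. At Plekha2, a phosphoinositide-binding adaptor, the kd Ezh2 score was 541 with no H3K27ac in either condition. Sh3rf1, a ubiquitin ligase and JNK scaffold, had a score of 523. Tnrc18 had a score of 517 with a control peak 1902 bp away. Dusp4, a phosphatase of MAP kinases, had a score of 490, and its Smarca4 score was 821 in control and 220 in kd. In all 8 of these members an H3K27me3 island was called in both conditions, and 3 of the 8 (Plekha2, Sh3rf1 and Dusp4) lie on chromosome 8.

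H3K27me3 was still called after kd in 2498 members, 75.8% (74.3 to 77.3%), and among all windows the share was 29.4%. The 796 members without it are 24.2%, close to the 23.3% of all 7659 windows with control H3K27me3, so a missing kd island was about as frequent at members as at all windows with the mark. It was 0.294% at the bivalent promoters with Ezh2, of which 1356 of 1360 had H3K27me3 in kd. Where the mark was called in both conditions, the island covered fewer window bases in kd at 873 members, equally many at 1348 and more at 277. The median length of the longest island at these members was 8800 bp in control and 8200 bp in kd.

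The calls also differed with the position in the window. In control, 78.4% of members had the TSS itself inside an H3K27me3 island, 78.1% the base 1 kb upstream and 77.8% the base 1 kb downstream. In kd the share was 50.0% at the TSS (48.3 to 51.7%), but 62.3% at 1 kb upstream (60.6 to 63.9%) and 60.8% at 1 kb downstream (59.1 to 62.4%). The kd share was thus lower at the TSS than at its flanks. The control profile is in part set by the rule, which asks for an island near the TSS, and is given as a description. At the bivalent promoters with Ezh2 the TSS was inside an island at 99.3% in control and at 95.7% in kd, with 97.0% and 98.5% at the flanks in kd.

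**Figure D2:**
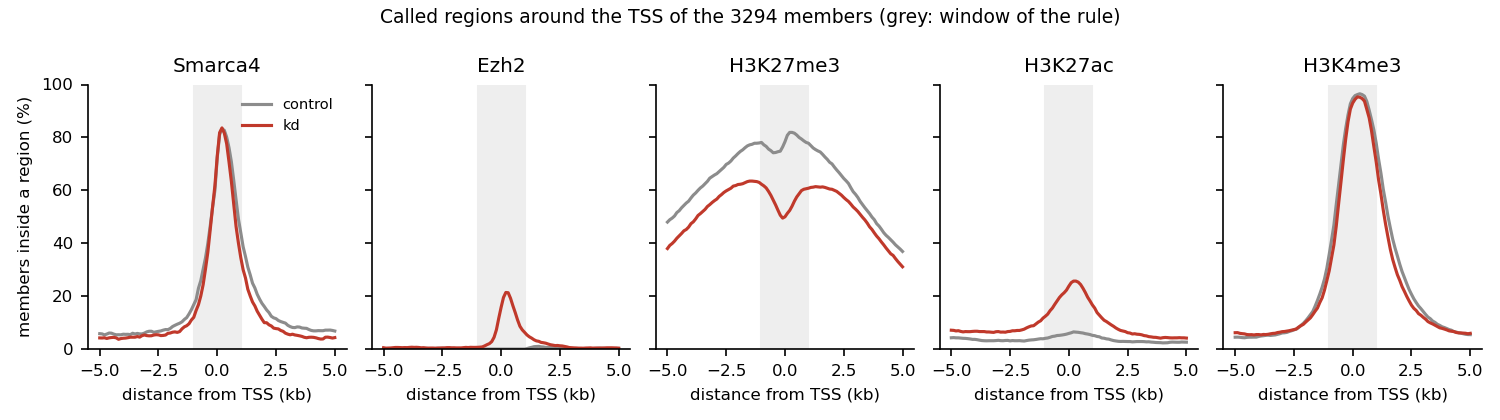
Percentage of the 3294 members whose base at a given distance from the TSS (horizontal axis, kb, upstream to the left) lies inside a called region, for each antibody in control (grey line) and kd (red line); the shaded strip is the 2001-bp window used by the rule. The kd line of H3K27me3 dips to 50.0% at the TSS between shoulders of 62.3% and 60.8% at 1 kb, the kd lines of Ezh2 and H3K27ac peak just downstream of the TSS, and the absence of control Ezh2 within the strip is set by the rule.

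The dip differed with the other kd calls. Among the 2498 members with H3K27me3 in both conditions, the TSS was inside the kd island at 90.8% of the 794 that also had Ezh2 but no H3K27ac in kd. It was inside at 63.6% of the 206 with both Ezh2 and H3K27ac, at 60.6% of the 1101 with neither, and at 32.0% (27.6 to 36.7%) of the 397 with H3K27ac and no Ezh2. In control the corresponding shares were 96.0%, 85.9%, 85.6% and 70.3%, so that the 397 members already had fewer TSSs under H3K27me3 before kd.

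The members without H3K27me3 in kd had weaker control islands, with a median −log10 p of 27.7 against 122 at the members with it, and a median island length of 5200 bp against 8800 bp. The 4 with the lowest control p, each with p listed as 0, were Khdrbs1, Gm20388, Usp10 and Macrod1. Khdrbs1, an RNA-binding protein, had an island of 21600 bp over the whole window in control. Its H3K27ac had a −log10 p of 30.7 in control and 101 in kd. Usp10, a deubiquitinase, and the overlapping gene model Gm20388 share an island of 61400 bp in control and H3K27ac with a −log10 p of 6.47 in control and 49.3 in kd. Both lie on chromosome 8. At Macrod1, an ADP-ribose hydrolase, H3K27ac stood at 11.6 and 60.1 on the same scale. All 4 carried H3K27ac in both conditions, whereas 106 of all 796 members without H3K27me3 in kd (13.3%) had it in control.

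H3K27ac was called at 268 members in control, 8.14% (7.25 to 9.12%), and at 993 in kd, 30.1% (28.6 to 31.7%). For all windows the shares were 16.1% and 31.2%, thus the members were below all windows in control and near them in kd. Of the 3026 members without H3K27ac in control, 774 (25.6%) had it in kd, compared with 20.2% of all windows without it in control. This share was 50.0% (2405 of 4814) at H3K4me3 promoters without H3K27me3 and Ezh2 and 11.4% at bivalent promoters with Ezh2. Of the 268 members with H3K27ac in control, 49 (18.3%) had no kd island, compared with 11.5% of all windows. The kd list of H3K27ac was also the longer of the pair, and with lists of equal length the kd share of the members was 21.5%. At the bivalent promoters with Ezh2 the shares were 1.40% and 12.5%, and at H3K4me3 promoters without H3K27me3 and Ezh2 37.8% and 65.7%.

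The difference was larger on chromosome 8, where all windows also stood apart: 51.0% of its 208 members had H3K27ac in kd and 11.1% in control, while on the other chromosomes 28.7% of 3086 members had it in kd and 7.94% in control. On X, with 63 members, the kd share was 14.3%, and it was low among all its 948 windows too, at 18.2%. Repeat-rich islands were few, as 29 of the 993 kd members touched an H3K27ac island of which at least 50% was repeat-masked.

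Samd1, which encodes a protein that binds CpG islands, had the strongest H3K27ac island called in kd alone among the members, with a −log10 p of 74.3. Its H3K27me3 island touched 329 bp of the window from upstream, with a −log10 p of 55.2 in control and 39.7 in kd. Zbtb7a, a transcriptional repressor, followed at 68.3, and there a weak H3K27me3 island of 1600 bp in control, with a −log10 p of 11.4, had no counterpart in kd. Zbtb7a also had a kd Ezh2 peak with a score of 95. Skil, an inhibitor of Smad signalling, had 57.5, and Homer3, a scaffold protein of synapses, 56.8. Both had an H3K27me3 island in control alone, and Samd1 and Homer3 lie on chromosome 8.

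In the opposite direction, H3K27ac was called in control alone at Etfa, the electron transfer flavoprotein subunit, with a −log10 p of 28.3. Mfsd4b2 had 27.4 together with an Ezh2 score of 86 in kd. Ddah2, which hydrolyses dimethylarginine, had 22.7, and its H3K27me3 island was 1400 bp long in control and 13200 bp in kd. Rps14, a protein of the small ribosomal subunit, had 21.2 and lacked its H3K27me3 island in kd. The control H3K27ac islands covered 158 of the 2001 window bases at Etfa, 123 at Mfsd4b2, 366 at Ddah2 and 98 at Rps14. Their lengths were 2600, 5200, 11200 and 1200 bp, so that most of each island lay outside the window.

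H3K27ac and H3K27me3 were called together at a part of the members. In kd, H3K27ac was called at 603 of the 2498 members with H3K27me3 (24.1%) and at 390 of the 796 without it (49.0%, 45.5 to 52.5%). The same split was present in control, where H3K27ac lay at 6.49% of the former and 13.3% of the latter. Members with a kd Ezh2 peak had H3K27ac in kd at 22.0%, and members without one at 33.8%.

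Smarca4 was called at nearly all members in both conditions, at 3185 in control (96.7%, 96.0 to 97.2%) and at 3206 in kd (97.3%, 96.7 to 97.8%). Among all windows the shares were 63.0% and 64.0%. It was called at 3137 members in both conditions, at 48 in control alone, at 69 in kd alone and at 40 in neither. The 48 are 1.51% of the 3185 members with control Smarca4, compared with 4.31% of all windows with it, and the 69 are 63.3% of the 109 members without it, compared with 10.1% of all windows without it. At H3K4me3 promoters without H3K27me3 and Ezh2 the latter share was 64.4% (367 of 570), and at bivalent promoters with Ezh2 it was 7 of 8. The bivalent promoters with Ezh2 had Smarca4 at 99.4% and 99.0%, and the H3K4me3 promoters without H3K27me3 and Ezh2 at 92.6% and 96.2%. A high share was thus not particular to the members.

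The rank of the Smarca4 peaks within the list of each condition differed between promoter classes. Among the members with a peak in both conditions, the median percentile was 91.1 in control and 86.7 in kd, but a percentile depends on the length of its list (78960 and 72126 peaks), so these are not read as a change. Between classes, which were ranked in the same lists, the percentile was higher in kd at 1191 of these 3137 members (38.0%), at 20.8% of the bivalent promoters with Ezh2, at 58.5% of the H3K4me3 promoters without H3K27me3 and Ezh2, and at 47.2% of all windows with Smarca4 in both. Smarca4 peaks also covered fewer window bases in kd at 1883 members and more at 1223, with medians of 1116 and 1029 bp. The median over windows with a peak in the given condition was 975 and 944 bp for all windows. It was 1178.5 and 1032 bp at bivalent promoters with Ezh2 and 950 and 984 bp at H3K4me3 promoters without H3K27me3 and Ezh2. At the TSS the share of members inside a peak was 72.4% in control and 73.0% in kd, while 1 kb downstream it was 44.0% and 34.6%. The downstream share was also lower in kd in these 2 classes, with 58.7% and 48.1%, and 29.1% and 25.9%.

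The highest control Smarca4 score of a member, 1407, was at Scrt2, a neural zinc finger repressor, where the kd score was 1752 and an Ezh2 peak with a score of 144 was called in kd. Spire2, an actin nucleator, had 1238 in control and 810 in kd. Tbc1d9, a protein of the Rab GTPase-activating family, and Gm10645 on the opposite strand share 1 peak, with scores of 1235 and 688. Spire2, Tbc1d9 and Gm10645 lie on chromosome 8, which holds 6.31% of the members. Smarca4 was called in control alone with the highest scores at Ltk (408), at Acot3 (308), an acyl-CoA thioesterase, at Fam189a2 (280) and at Pde8b (199), a phosphodiesterase of cAMP. In this order, peaks covered 337, 121, 1022 and 595 of the 2001 window bases. The peaks at Ltk and Acot3 were 2130 and 1340 bp long and thus lay mostly outside the window. Of these 4 members, Ltk and Fam189a2 had Ezh2 in kd. Smarca4 was called in kd alone with the highest scores at Cspg5 (220), a neural proteoglycan, at Zfp618 (140), at Eif3j2 (130) and at Ushbp1 (116). These peaks covered 20, 246, 259 and 73 window bases. Those at Cspg5 and Ushbp1 were 626 and 818 bp long and thus lay mostly outside the window. Zfp618, the CpG-dense sequence printed above, also had an Ezh2 score of 61 in kd and no H3K27me3 there.

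H3K4me3 was called in kd at 3222 members, 97.8% (97.3 to 98.3%), with 60.9% of all windows. The 72 members without it are 2.19%, compared with 1.38% of all windows with control H3K4me3. The 4 members without kd H3K4me3 and with the lowest control p were Cutal, Ccnt1, Dqx1 and Tet3. At Cutal the control p was listed as 0 and the Smarca4 score was 86 in control and 23 in kd. The window of Cutal overlaps that of Psmd5, a proteasome assembly chaperone, which also had no H3K4me3 in kd. At Ccnt1, the cyclin of P-TEFb, the control p was listed as 0 as well. Dqx1 had a control −log10 p of 274 and Tet3, a dioxygenase acting on methylated cytosine, of 265. The control islands at Ccnt1, Dqx1 and Tet3 were 8800, 4000 and 3600 bp long. They covered 78, 157 and 317 of the 2001 window bases, so these p-values belong to islands mostly outside the window. At Cutal the covered bases were 1201. Ccnt1, Dqx1 and Tet3 had no Smarca4 peak in either condition, although 96.7% of all members had one in control, and had 23 to 28 CpG in the window.

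Taken by their kd calls of H3K4me3, H3K27me3, Ezh2 and H3K27ac, the members fell into 12 combinations. The state they had been chosen for, both marks and no Ezh2, held 1049 members (31.8%) without H3K27ac and 397 (12.1%) with it. A further 786 (23.9%) had both marks and Ezh2 without H3K27ac, and 206 (6.25%) all 4 regions. H3K4me3 stood alone at 391 (11.9%) and with H3K27ac at 368 (11.2%). The remaining 6 combinations held between 2 and 52 members each.

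How a member was called in kd varied with its control H3K27me3. The members were ordered by the p-value of their strongest control island and divided into 4 groups of 823 or 824. In the weakest, with a −log10 p of 10.0 to 33.7, Ezh2 was called in kd at 8.74% and H3K27me3 at 45.6%. In the strongest, with a −log10 p of 235 or more, including 642 members with p listed as 0, the shares were 48.2% and 91.9%. H3K27ac went the other way, from 40.3% in kd at the weakest to 21.5% at the strongest, and likewise from 12.7% to 3.89% in control. Smarca4 in kd lay between 96.7% and 97.8% in all 4 groups. As the islands are called on signal, weak islands are also those nearest to the threshold, and how far this sets the 45.6% was not tested.

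**Figure D3:**
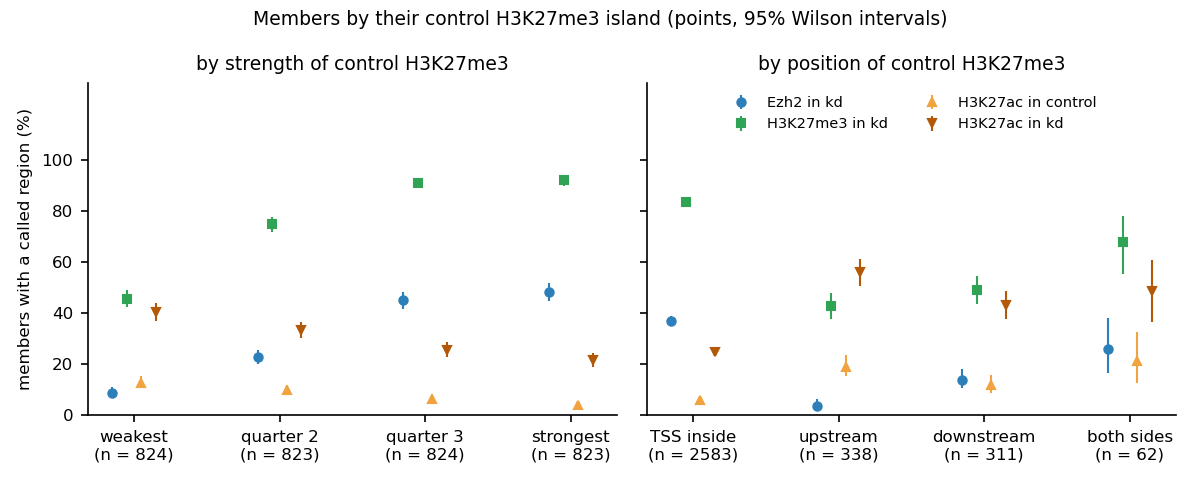
Percentage of members with a called region (vertical axis, points with 95% Wilson intervals) for Ezh2, H3K27me3 and H3K27ac in kd and H3K27ac in control, by groups of control H3K27me3 strength (left) and by where the control island lies relative to the TSS (right); n is given under each group. From the weakest to the strongest group Ezh2 in kd goes from 8.74% to 48.2% and H3K27ac in kd from 40.3% to 21.5%; with the island upstream of the TSS alone Ezh2 stands at 3.55% and H3K27ac in kd at 55.9%.

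The position of the island split the members in a similar manner. With the TSS inside the control H3K27me3 island, Ezh2 was called in kd at 36.9%, H3K27me3 at 83.6% and H3K27ac at 24.8%, after 6.0% in control. With the island upstream alone, Ezh2 in kd stood at 3.55% (12 of 338), H3K27me3 at 42.6% and H3K27ac at 55.9%, after 18.9% in control. With the island downstream alone the shares were 13.8%, 48.9% and 43.1%, after 11.6%. At the 125 members whose H3K27me3 and H3K4me3 islands shared no base, 2 had Ezh2 in kd. Members with a control Ezh2 peak elsewhere in the same island had Ezh2 in kd at 35.1%, close to the 30.8% of the others, whose interval ran from 29.1 to 32.4%.

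The genes of the members were grouped by 20 lists of gene symbols. All windows held 15.1% members and 6.25% bivalent promoters with Ezh2. Among 161 homeobox genes, which pattern the body axis and organs, 9 were members and 83 were bivalent with Ezh2. Of 63 Forkhead and Sox genes 13 were members and 26 had Ezh2, and of 56 bHLH genes 16 and 21. In the T-box, Gata and Klf list 6 and 12 of 39 genes were in these classes, and in the FGF pathway list 13 and 16 of 60. Members outnumbered bivalent promoters with Ezh2 among the 130 cadherins and integrins (36 against 18), the 369 solute carriers (67 against 35) and the 394 zinc finger genes of the Zfp series (54 against 11). The same held among all windows (3294 against 1360), so this order is not particular to these lists. The share of members was 27.7% of the cadherins and integrins. It was nearer the 15.1% of all windows among solute carriers (18.2%) and Zfp genes (13.7%). The ribosomal protein and proteasome lists, which were taken as housekeeping genes, held 6 of 83 and 2 of 39 members. Among all 3294 members 31.1% had Ezh2 in kd, 24.2% had no H3K27me3 in kd and 774 had H3K27ac in kd alone, and the counts of kd calls given below for single lists are descriptions beside these.

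**Figure D4:**
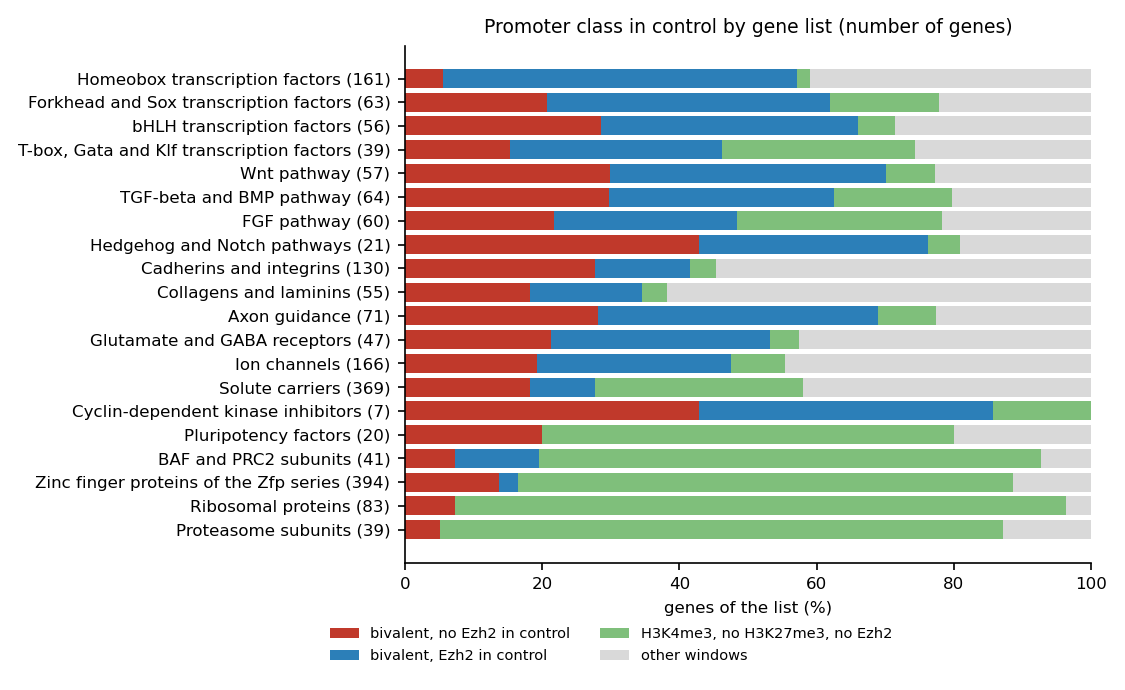
Share of the genes of each of 20 lists (horizontal axis, %, number of genes in brackets) whose promoter in control was bivalent without Ezh2 (red), bivalent with Ezh2 (blue), marked by H3K4me3 without H3K27me3 and Ezh2 (green) or in another state (grey). Of the 161 homeobox genes 9 are red and 83 blue, whereas of the 394 Zfp genes 54 are red and 11 blue.

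Of the 9 homeobox members, 5 had Ezh2 in kd and 2 had no H3K27me3. Hhex, a regulator of liver and blood development, had an Ezh2 score of 95 in kd, with Smarca4 at 616 in control and 367 in kd. Pitx3, needed for dopaminergic neurons and the lens, had an Ezh2 score of 78, with H3K27me3 p listed as 0 in both conditions. Gbx2, which positions the midbrain-hindbrain boundary, had no Ezh2 peak and an H3K27ac island in kd alone with a −log10 p of 6.34. Its H3K27me3 island was 24600 bp long in control and 7000 bp in kd.

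Among the 13 Forkhead and Sox members, 6 had Ezh2 in kd and 7 had H3K27ac in kd alone. Sox30, a factor of male germ cells, had both, with an Ezh2 score of 122 and a Smarca4 score of 148 in control and 320 in kd. Sox8, a factor of glia and neural crest, had an Ezh2 score of 60. Foxo1, an effector of insulin signalling, and Foxj1, which drives the formation of motile cilia, had no Ezh2 peak in kd, and H3K27ac was called at Foxo1 alone of them, with a −log10 p of 6.03.

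Of the 16 bHLH members, 8 had Ezh2 in kd, 2 had no H3K27me3 and 2 had H3K27ac in kd alone. Hey1 and Hey2, which repress transcription downstream of Notch, had Ezh2 scores of 69 and 84. Msc, a repressor in muscle precursors, had a score of 361, the nearest control peak being 25150 bp away. Id3, an inhibitor of bHLH factors, had 114. Of the 4, Hey1 had H3K27ac in kd, with a −log10 p of 8.56.

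Of the 6 members among the T-box, Gata and Klf genes, 3 had Ezh2 in kd and 4 had H3K27ac in kd alone. Klf15, a metabolic regulator, had an Ezh2 score of 106, with Smarca4 at 426 in control and 190 in kd. Klf11, which acts downstream of TGF-beta, had no Ezh2 and an H3K27ac island with a −log10 p of 11.8 in kd. Gata3, a regulator of T cells and trophoblast, had a Smarca4 score of 57 and an Ezh2 score of 95 in kd and neither in control, and its H3K4me3 island, with a −log10 p of 11.7 in control, was not called in kd.

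The 20 pluripotency factors held 4 members and no bivalent promoter with Ezh2. Tbx3, which supports self-renewal, had an Ezh2 score of 95 and H3K27ac with a −log10 p of 7.35 in kd, and its H3K27me3 island was 40000 bp long in control and 57800 bp in kd. Prdm14, which keeps the naive state, had an Ezh2 score of 29. Klf4, a reprogramming factor, was a member through a weak island of 1800 bp downstream of the TSS with a −log10 p of 15.2, which was not called in kd. There H3K27ac was called in kd alone with a −log10 p of 29.5, and Smarca4 scored 287 in control and 296 in kd. Dppa3, a maternal factor, had H3K27ac in kd alone at 13.1.

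The Wnt list, which holds ligands, receptors and inhibitors, had 17 members among 57 genes. Of these, 12 had Ezh2 in kd, all had H3K27me3 in kd, and 6 had H3K27ac in kd alone. The receptor Fzd10 had an Ezh2 score of 105 and an H3K27ac −log10 p of 15.8 in kd. The receptor tyrosine kinase Ror2 had 87 and 8.08. The secreted inhibitor Sfrp2 had an Ezh2 score of 16, close to the lowest score of the list (14), and the co-receptor Lrp5 had 87, and neither had H3K27ac.

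In the TGF-beta and BMP list, 8 of the 19 members had Ezh2 in kd and 7 had H3K27ac in kd alone. Apart from the ligand subunit Inhbb, the named members were the receptors Acvr1b and Tgfbr1 and the signal transducer Smad3, which had no Ezh2 peak in either condition. At Smad3 H3K27ac was called in kd alone with a −log10 p of 10.1, and at Tgfbr1 with 6.15. At Acvr1b it stood at 6.40 in control and 21.5 in kd. Their H3K27me3 islands were called in both conditions.

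Among the FGF pathway members, 5 of 13 had Ezh2 in kd. Beside Dusp4, these included Fgf11, an intracellular FGF-like factor (211), and Dusp5, a nuclear ERK phosphatase (60), whereas Dusp16, a JNK phosphatase, had no Ezh2 and an H3K27ac −log10 p of 14.3 in kd. In the Hedgehog and Notch list 4 of 9 members had Ezh2 in kd. The Notch ligand Jag2 had an Ezh2 score of 50 together with H3K27ac at a −log10 p of 18.7, and its H3K27me3 island was 19800 bp long in control and 3200 bp in kd. The Hedgehog inhibitor Hhip had an Ezh2 score of 104. The Hedgehog transducer Smo and the receptor Notch2 had none, and at Smo H3K27ac stood at 5.77 in control and 16.9 in kd.

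Among the 20 lists, the number of members with Smarca4 differed most between conditions at the cadherins and integrins, which join cells to each other and to the matrix. Of the 36 cadherin and integrin members, 29 had Smarca4 in control and 35 in kd, 12 had Ezh2 in kd and 2 had H3K27ac in kd alone. The 7 without control Smarca4, singled out after their values were seen, were all clustered protocadherins, of which 12 of 19 members had Smarca4 in control and 19 in kd. These are paralogs in gene clusters, and how far sequence shared between them bears on their calls was not tested. Cdh3, the P-cadherin, had an Ezh2 score of 38 and Smarca4 at 458 in control and 305 in kd. The atypical cadherin Celsr2, a planar polarity protein, had an Ezh2 score of 78, and the integrin subunit Itga3 had 43. Pcdhgc3, a clustered protocadherin, had no Ezh2 peak, and its H3K27me3 p was listed as 0 in both conditions. Of the 10 collagen and laminin members 4 had Ezh2 in kd. Lama5, the laminin chain printed above, had no H3K27me3 in kd after an island of 17200 bp in control, and H3K27ac in kd alone with a −log10 p of 41.4. Lamb1 had both an Ezh2 score of 37 and H3K27ac at 10.1, and Col23a1 had an Ezh2 score of 105.

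Of 71 axon guidance genes 20 were members (28.2%) and 29 were bivalent with Ezh2, and 6 of the 20 had Ezh2 in kd. The semaphorins Sema6c and Sema4c differed, the former with H3K27ac at a −log10 p of 10.3 in kd and no Ezh2, the latter with an Ezh2 score of 25 and no H3K27ac. Ntn1, the guidance cue netrin, had both, with an Ezh2 score of 20 and H3K27ac at 7.59, and its H3K27me3 island was 16000 bp long in control and 3000 bp in kd. The ephrin receptor Ephb3 had an Ezh2 score of 64, and its H3K27me3 −log10 p was 14.5 in control and 150 in kd.

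Of 47 glutamate and GABA receptor genes 10 were members and 15 were bivalent with Ezh2. Of the 10, 4 had Ezh2 in kd, among them Gabrb1 (52) and Grm2 (37). Gabrd had none, and Grik5 had no H3K27me3 in kd and H3K27ac at a −log10 p of 17.2, but its window overlaps that of Zfp574 with the same regions. Of 166 ion channel genes 32 were members and 47 were bivalent with Ezh2, and 16 of the 32 had Ezh2 in kd. The potassium channel genes Kcnn1, Kcnh5 and Kcnh2 had Ezh2 scores of 261, 172 and 69 with no H3K27ac, and the sodium channel subunit Scn3b had no Ezh2.

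The remaining lists hold genes of transport, cell cycle and general functions. Of 67 solute carrier members, 22 had Ezh2 in kd, a share near that of all members, among them the organic ion transporter Slc22a23 (144) and the glutamate transporter Slc1a3 (44), while Slc25a4, the mitochondrial ADP/ATP carrier, and Slc5a3, the inositol transporter, had none. Of the 54 Zfp members 6 had Ezh2 in kd, 23 had no H3K27me3 and 16 had H3K27ac in kd alone. Of the Zfp members named in this report, Zfp651, Zfp574, Zfp821 and Zfp579 had no Ezh2 peak in either condition. Zfp618, named above, had one in kd with a score of 61. Of the 3 cyclin-dependent kinase inhibitors, Cdkn1b, Cdkn1a and Cdkn2b, which halt the cell cycle, none had Ezh2 in kd. Cdkn1a had no H3K27me3 in kd after a −log10 p of 160 in control, H3K27ac at 10.8 in control and 53.2 in kd, and Smarca4 at 43 in control and 108 in kd.

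Of the 41 genes for BAF and PRC2 subunits and related factors 3 were members, Smarca1, Brd7 and Smarcc2. Smarcc2, a BAF core subunit, and Smarca1, an ISWI ATPase, had no H3K27me3 in kd. Brd7, a PBAF subunit, had H3K27me3 at a −log10 p of 177 in control and 11.2 in kd and H3K27ac at 6.01 in control and 37.7 in kd. Of the 6 ribosomal protein members, which included Rpl3, Rpl17 and Rpl12 beside Rps14, 4 had no H3K27me3 in kd and 4 had H3K27ac in kd alone. The proteasome members were Psma7, with H3K27ac at a −log10 p of 6.69 in control and 19.4 in kd, and Psmd5, whose control H3K27ac at 5.39 was not called in kd.

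The windows of the members were rich in CpG, which the rule did not use directly, although H3K4me3 and PRC2 are both known to accumulate at CpG islands. Their median GC content was 56.2% and their median CpG count 92.5, against 51.3% and 62 for all windows. The bivalent promoters with Ezh2 were richer, with medians of 59.7% and 119, and the H3K4me3 promoters without H3K27me3 and Ezh2 had 52.9% and 88. The ratio of observed to expected CpG was 0.606 at members, 0.680 at bivalent promoters with Ezh2 and 0.640 at H3K4me3 promoters without H3K27me3 and Ezh2, against 0.478 for all windows.

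Among the members, CpG content went along with both kd calls. The 1025 with Ezh2 in kd had a median of 102 CpG (quartiles 83 and 129), and the 2269 without had 88 (67 and 115). Members with H3K27ac in kd alone had a median of 113 CpG, and those with H3K27ac in neither condition 86. As the windows were chosen on control calls, these are descriptions of the members alone.

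**Figure D5:**
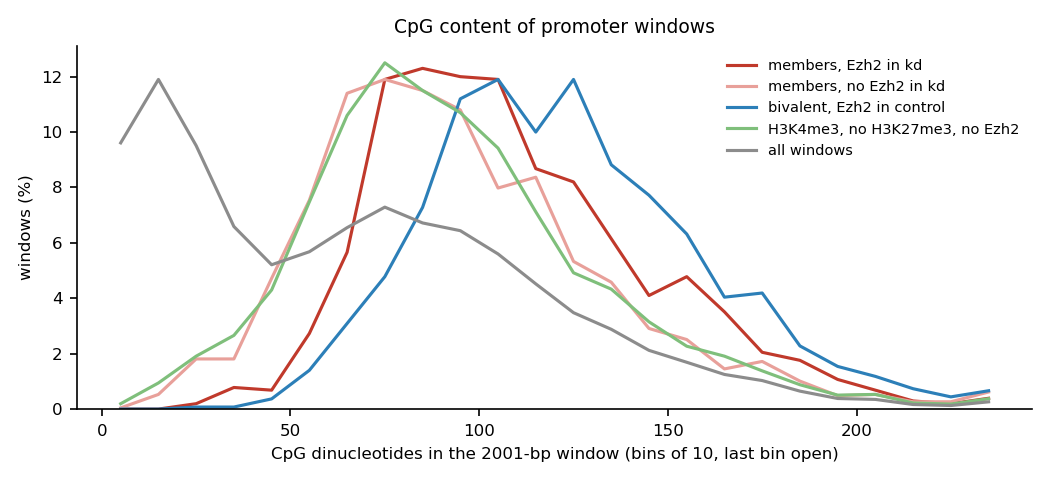
Number of CpG dinucleotides in the 2001-bp window (horizontal axis, bins of 10) against the percentage of windows of each class (vertical axis), for members with and without Ezh2 in kd, bivalent promoters with Ezh2 in control, H3K4me3 promoters without H3K27me3 and Ezh2, and all windows. Members with Ezh2 in kd (median 102) lie between the members without it (88) and the bivalent promoters with Ezh2 in control (119).

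A RefSeq promoter sequence whose start lay within 250 bp of the annotated TSS was found for 2059 of the 3294 members (62.5%) and for 13068 of all 21755 windows. In these 300 bases the members had a median of 23 CpG, all windows 16 and the bivalent promoters with Ezh2 26. The H3K4me3 promoters without H3K27me3 and Ezh2 had 22. Short motifs were counted on both strands, and matches of different motifs may share bases. The GC box GGGCGG was present in 75.7% of the member sequences, 74.6% of those of bivalent promoters with Ezh2 and 51.3% of all. The stretch CGCGCG, which 6 of the 8 sequences printed above hold (all but Lama5 and Cdkn1a), was present in 28.0% of members and 16.9% of all, the TATA box TATAAA in 5.83% and 11.6%, and the CCAAT box in 36.0% and 39.6%. The E-box CACGTG was present in 10.1% and 8.72%, and GAGAGA in 19.8% and 22.3%. The H3K4me3 promoters without H3K27me3 and Ezh2 held the GC box in 67.8%, CGCGCG in 23.9%, TATAAA in 5.68% and the CCAAT box in 42.9%. Bivalent promoters with Ezh2 held CGCGCG in 32.8%, TATAAA in 6.99% and the CCAAT box in 32.1%. The differences from all windows in GC box, CGCGCG and TATAAA were thus shared by these classes. Members with Ezh2 in kd held CGCGCG in 31.9%, those without in 26.5%. A match describes the letters alone and is not a bound site.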

How the data were processed

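The series lists 14 samples, 10 immunoprecipitated libraries and 4 inputs, and the 10 deposited region lists were used here. Per the methods, trimmed reads were mapped by the authors to mm10, MACS2 was used for Smarca4 and Ezh2 peaks and SICER (windows of 200 bp, gaps of 600 bp) for islands of the histone marks, each library on its own against the input of its condition. The labels of the inputs name IgG, so the background used for calling is not certain. The submitters' processing notes name Trim Galore, Bowtie2, SAMtools 1.9 and MACS2, and versions of the other tools are not given in the sources used here. Peaks were deposited with a MACS2 score and islands with a SICER p-value, both made by the authors, and the p-value is printed here as −log10 p. Neither is scaled between libraries, and a p listed as 0 has no −log10. A percentile is the midrank within the list of the same library. Where several regions touched a window, the strongest counted. Depth per library is unknown here.

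Windows were built on the annotated gene start of each protein-coding gene of GENCODE M21, whereas the methods name a later release. Overlaps of at least 1 bp were computed in Python 3.11.15 with numpy 2.4.6 and checked against bedtools 2.31.1, and the code for overlaps was tested on simulated intervals. Shares carry 95% Wilson intervals. No p-value was computed and no replicate existed. CpG, GC and repeat-masked bases were read from GRCm38.p6.

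The members and gene lists were chosen with earlier results of these data known. Named genes follow a rule of 32 parts: the members with the highest scores or lowest p-values for each kind of kd or control call (4 each, and 8 for Ezh2 in kd), in each of the 20 gene lists up to 4 members with the most window bases under control H3K27me3, the members and windows next to the edges of the rule, and members the paper names. Some genes the rule names are not reported here. The alternatives were a stricter threshold, windows of 500 bp and 2.5 kb on each side, every transcript start, an overlap of 200 bp, lists of equal length and no control Ezh2 in the whole island. A further 3 were chosen after seeing the data: the TSS inside both islands, unshared windows and no chromosome 8. The authors' own comparisons between conditions were not used.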

Additional observations from a re-analysis of the deposited data

How the results depend on the processing

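The number of members ran from 2437 to 3964 over the alternatives, against 3294. The 8 values described under 10 alternatives gave 80 comparisons, of which 48 stayed within the 95% interval of the value reported (for the number of members, within 1.5 times of it) and 32 did not. At the stricter threshold, Smarca4 stood at 95.3% in control and 95.1% in kd, H3K27ac at 3.38% and 18.6%, H3K27me3 in kd at 72.6% and Ezh2 in kd at 33.0%. With windows of 500 bp on each side, Smarca4 was at 95.6% and 96.0%, H3K27ac at 6.34% and 26.2% and H3K27me3 in kd at 73.0%. With 2.5 kb on each side, Smarca4 in kd was at 97.9%, H3K27ac at 13.0% in control and 38.7% in kd, H3K4me3 in kd at 98.8%, H3K27me3 in kd at 72.9% and Ezh2 in kd at 26.7%. With lists of equal length, H3K27ac in kd was at 21.5%, H3K4me3 at 96.7%, H3K27me3 at 80.1% and Ezh2 at 36.6%, the difference following from the shorter lists. Without control Ezh2 in the whole H3K27me3 island, H3K4me3 in kd was at 98.3%. With the TSS inside both islands, Smarca4 was at 97.9% and 98.6%, H3K27ac at 6.20% and 25.3%, H3K4me3 in kd at 98.6%, H3K27me3 in kd at 83.7% and Ezh2 in kd at 37.5%. In unshared windows, H3K27ac in kd was at 27.9%, H3K27me3 at 78.4% and Ezh2 at 33.6%. Where not stated, the cause was not tested. Every transcript start, an overlap of 200 bp and leaving out chromosome 8 moved none of the 8 values beyond these limits. In each of the 10 alternatives H3K27ac was called at more members in kd than in control.

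No paired analysis was possible because there was 1 library per antibody and condition, so there was no replicate to leave out. Regions under a caller's limit are not in the lists, and library depth is unknown here. The Wilson intervals cover counting error alone.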
